A study of Mus musculus with 9 samples.

Results

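The genes described here are 146 mouse solute carrier genes, the transporters that move sugars, ions, metals, vitamins, nucleosides, fatty acids and other small molecules across membranes. They were chosen by name and biotype: protein-coding genes whose symbol starts with Slc and a family number, with the amino acid carriers (Slc1a, Slc3a, Slc6a, Slc7a, Slc36a, Slc38a and Slc43a) and the mitochondrial carriers (Slc25a) left out. Of 170 such genes in the table, 146 had a normalized count of at least 10 in at least 3 of 9 libraries and were kept, among 17579 genes of 22469 that passed the same filter. The rule uses no comparison between groups. The cells are 4T1, a mouse mammary tumour line, in 3 groups of 3 biological replicates: wild type (WT), and lines KO-c19 and KO-c43, in which Nat10 is knocked out. Nat10 encodes an RNA acetyltransferase. All 3 groups received no treatment, grew in DMEM with fetal bovine serum, glutamine and antibiotics, and were lysed 48 hours after 300000 cells had been seeded per 6 cm dish. Each knockout line is 1 line, so the replicates are cultures of that line, and p-values measure the spread between cultures and not between independent knockouts.

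Solute carriers are grouped into numbered families by sequence, and a family usually shares a kind of cargo. Some carriers let a solute flow down its gradient, and others couple it to sodium, protons or a counter-solute. Zinc is moved by a pair of families that work against each other: Slc39 proteins bring zinc into the cytosol, and Slc30 proteins take it out of the cytosol into vesicles or out of the cell. Mammary cells are known for moving zinc, calcium, iodide and sugar into milk. The transcription factor Mtf1 senses zinc and binds metal response elements, through which it raises the metallothioneins Mt1 and Mt2 and the zinc exporter Slc30a1.

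Because Slc30a1 and the metallothioneins changed in the results below, the 250 bases before their RefSeq starts are shown, beside those of Slc30a4, the zinc exporter that moved the other way from Slc30a1. Sequences are from RefSeq on GRCm38.p6, each written 5′ to 3′ on the strand of its gene: Slc30a1 from chr1:191906531-191906780 (plus strand), Slc30a4 from chr2:122702664-122702913 (minus strand), Mt1 from chr8:94178839-94179088 and Mt2 from chr8:94172368-94172617 (both plus strand). Capitals mark the core of the metal response element, searched as TGCACNC or TGCGCNC on both strands, where N is any base.
Slc30a1: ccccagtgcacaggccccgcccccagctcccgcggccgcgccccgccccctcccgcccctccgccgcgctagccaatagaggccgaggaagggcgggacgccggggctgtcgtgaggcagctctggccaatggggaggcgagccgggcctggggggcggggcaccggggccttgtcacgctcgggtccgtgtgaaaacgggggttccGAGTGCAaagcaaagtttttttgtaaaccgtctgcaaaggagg
Slc30a4: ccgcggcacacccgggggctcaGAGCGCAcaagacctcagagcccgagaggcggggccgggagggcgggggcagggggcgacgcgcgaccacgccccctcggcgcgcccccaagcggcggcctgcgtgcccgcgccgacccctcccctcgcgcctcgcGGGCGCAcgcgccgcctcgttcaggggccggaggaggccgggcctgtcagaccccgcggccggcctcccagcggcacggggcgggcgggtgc
Mt1: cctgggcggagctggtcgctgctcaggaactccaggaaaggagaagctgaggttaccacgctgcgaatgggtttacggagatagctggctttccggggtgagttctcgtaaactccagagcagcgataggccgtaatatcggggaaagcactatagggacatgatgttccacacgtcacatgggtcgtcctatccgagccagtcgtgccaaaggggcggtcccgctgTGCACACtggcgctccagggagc
Mt2: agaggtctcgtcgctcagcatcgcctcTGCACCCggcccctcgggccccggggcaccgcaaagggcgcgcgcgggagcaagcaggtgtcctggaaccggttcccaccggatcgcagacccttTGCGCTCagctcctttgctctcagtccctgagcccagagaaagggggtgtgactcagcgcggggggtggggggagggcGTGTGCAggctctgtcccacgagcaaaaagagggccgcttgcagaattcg
Slc30a1 and Mt1 held 1 match each in these windows, Slc30a4 held 2 and Mt2 held 3. Further matches reached into the 50 bases after the start, which are not shown: 2 for Mt1 and 1 each for Slc30a1, Slc30a4 and Mt2. Of the 16 zinc carrier genes, 13 had a RefSeq window, and 40% of their 15 windows held a match, against 21.41% of 32851 mouse windows of the same length and 31.97% of 147 windows of 113 carrier genes. A match is a string of letters and not a measured site.

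Nat10 itself was at 6432, 6501 and 6428 normalized counts in WT, 1748, 1761 and 1710 in KO-c19 and 1724, 1748 and 1766 in KO-c43. Its transcript fell by 1.89 on the log2 scale in both lines (adjusted p = 1.78e-17 and 1.26e-17), and no knockout library came near WT. Where in the gene the knockout lies is not stated in the labels, so reads outside it may still be counted. The deposited values are gene counts that the authors divided by 1 factor per library. They summed to between 45628576 and 50123222 per library. By an estimate from the spacing of low values, 1 read was worth about 0.8 to 1.1 normalized counts. The epithelial label was checked with 6 markers, of which 5 were in the table. Keratins Krt8 and Krt18 stayed between 25607 and 36345 in group means, while Epcam went from 6422 in WT to 963 and 123, Cdh1 from 26262 to 5797 and 3731, and Krt14 from 4960 to 22.2 and 15.1 in KO-c19 and KO-c43. Of the markers of other cells, 4 were in the table, and the others, like Krt5, were not analysed here. Group means of Ptprc and Pecam1 were at most 12.4 and those of Col1a1 at most 28.5. Pdgfra, a fibroblast receptor, was at 273 in WT, 866 in KO-c19 and 450 in KO-c43. Epcam, Cdh1 and Krt14 thus moved with the knockout groups across all of the comparisons below. For Krt8 and Krt18 the means were higher in both lines than in WT. The part of these markers in the carriers' changes was not tested. In bulk RNA, fewer cells that hold a transcript and less of it per cell cannot be told apart.

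Taken over the 146 genes, carriers rose more often than they fell in both knockout lines. All tests were limma on log2(normalized count + 1), fitted over all 17579 genes with Benjamini-Hochberg adjustment and a threshold of 0.05. KO-c19 had 67 carriers higher and 38 lower than WT, or 45.9% and 26% of the 146, where 32.8% of all tested genes were higher and 34.9% lower. In either direction that was 105 carriers (71.9%), against 67.6% of all genes. For KO-c43 there were 69 higher and 44 lower, or 47.3% and 30.1%, against 32.5% and 33.1% of all tested genes. In either direction these were 113 carriers (77.4%), against 65.6%. Rises of at least 2-fold were called for 22 carriers (15.1%, against 9.06% of all genes) in KO-c19 and for 23 (15.8%, against 8.28%) in KO-c43. Falls of that size were called for 14 (9.59%, against 6.41%) and 18 (12.3%, against 6.18%). The median carrier stood 0.18 above WT on the log2 scale in each line, and the median of all tested genes at 0.00 and 0.01. Both comparisons share the 3 WT libraries. Across them, 55 carriers (37.7%) rose in both lines and 33 (22.6%) fell in both, against 25.4% and 27% of all tested genes. Changes of at least 2-fold in both lines were reached by 17 rising carriers (11.6%, against 5.89% of all genes) and 12 falling ones (8.22%, against 4.14%). A further 19 carriers (13%, against 22.1%) passed in neither comparison. The balance of all genes depended on the scaling. With each library divided by its total instead, all tested genes also rose more often. They had 6840 higher and 5010 lower in KO-c19 and 6210 and 5277 in KO-c43. Carriers then had 76 higher and 35 lower in KO-c19 and 72 and 42 in KO-c43.

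**Figure D1:**
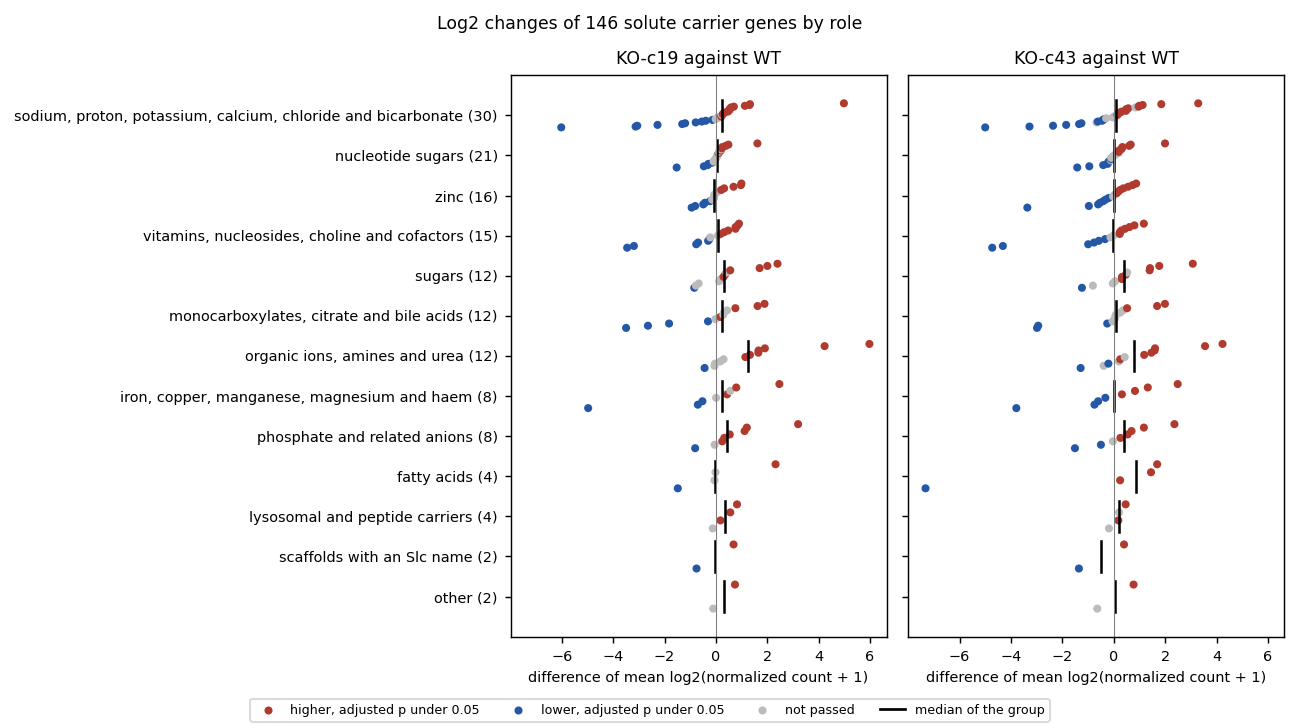
Each point is 1 of 146 carrier genes, placed by its difference of mean log2(normalized count + 1) from WT in KO-c19 (left) and KO-c43 (right), with rows for role groups, colours for the test and a black line at each group's median. Organic ion, sugar and phosphate carriers lie mostly above 0, with medians of 1.24, 0.33 and 0.43 in KO-c19, while zinc carriers are spread on both sides, with a median of -0.07. The organic ion median includes Slc14a1 and Slc14a2, which passed the value filter without WT.

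Among 12 genes of the sugar carrier families, 6 rose and 1 fell in both lines, where 25.4% of all tested genes rose and 27% fell in both, and the group's median log2 change was 0.33 in KO-c19 and 0.40 in KO-c43. Slc5a3, the sodium-coupled myo-inositol importer, is on chromosome 16 (91855210 to 91884362, plus strand, as the table gives them). It was at 9992, 9611 and 10052 in WT, at 41111, 38406 and 39642 in KO-c19 and at 33078, 33594 and 34639 in KO-c43. Both lines lay far above WT, by 4.02-fold (log2 2.01 ± 0.0358 SE, adjusted p = 4.79e-18) and 3.42-fold (log2 1.77, adjusted p = 2.1e-17). Per kilobase of exon, its level rose from 906 ± 21.9 (SD, n = 3) in WT to 3640 ± 124 in KO-c19. The gene shares its strand and part of its span with Mrps6, a mitochondrial ribosomal protein gene, whose own value rose less, from a WT mean of 4896 to 6844 and 6967 (log2 0.48 and 0.51). Reads in the shared stretch cannot be assigned from the table.

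Slc2a9 belongs to the glucose transporter family and is best known as a urate carrier. Its values were 210, 168 and 182 in WT, 931, 1016 and 1006 in KO-c19 and 503, 485 and 500 in KO-c43. The 3 groups did not overlap, and the rise was 5.27-fold in KO-c19 (log2 2.40 ± 0.0792, adjusted p = 1.94e-14) and 2.66-fold in KO-c43 (log2 1.41, adjusted p = 3.04e-11). The one member that fell in both lines, Slc5a6, carries biotin and pantothenate rather than sugar. It went from 740, 725 and 694 in WT to 356, 429 and 423 in KO-c19 and 310, 293 and 309 in KO-c43, a fall of 1.79-fold and 2.36-fold (log2 -0.84 and -1.24, adjusted p = 2.15e-08 and 1.14e-10). It overlaps Atraid on the opposite strand, which rose from a mean of 381 to 650 and 595, and the table does not say if strand was used in counting. The widely expressed glucose importer Slc2a1, named after its values were seen, rose modestly from a mean of 3596 to 4420 and 4481 (log2 0.30 and 0.32, adjusted p = 6e-05 and 3e-05).

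The Slc35 family, taken by its number as the nucleotide sugar carriers, held 21 genes. Such carriers feed glycosylation in the Golgi and endoplasmic reticulum. Whether each member, Slc35g1 included, carries a nucleotide sugar was not checked. KO-c19 had 7 higher and 5 lower, against 32.8% and 34.9% of all tested genes, and for KO-c43 the counts were 8 and 7, against 32.5% and 33.1%. The share of rising genes in KO-c19 was close to that of all genes. The median log2 changes were 0.06 and 0.01. Slc35c1, the GDP-fucose carrier of the Golgi, was at 1598, 1623 and 1478 in WT, at 1030, 1171 and 1200 in KO-c19 and at 806, 805 and 815 in KO-c43. It was lower in every knockout library (log2 -0.47 and -0.95, adjusted p = 1.42e-06 and 1.14e-10), and lower in KO-c43 than in KO-c19 (log2 -0.48, adjusted p = 2.69e-06). Slc35g1 had the greatest fall of the group, from 1725, 1739 and 1843 to 631, 573 and 637 in KO-c19 and 657, 679 and 642 in KO-c43 (log2 -1.53 ± 0.0559 and -1.42 ± 0.0559, adjusted p = 7.91e-14 and 2.17e-13). Among genes with a group mean of at least 100, rises were smaller. Slc35a5 gained 0.49 and 0.34 on the log2 scale (adjusted p = 4.17e-07 and 3.67e-05). Slc35b3, which carries the sulphate donor PAPS into the Golgi, gained 0.19 in KO-c19 (adjusted p = 0.0294) and 0.60 in KO-c43 (adjusted p = 1.3e-06). Its KO-c19 call was lost without KO-c19 replicate 1 (adjusted p = 0.0665), without KO-c19 replicate 2 (0.134), without any one WT replicate (0.0515, 0.054 and 0.0719) and under quantile scaling (0.0518).

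Carriers of monocarboxylates, citrate and bile acids included both strong rises and strong falls. Of 12 genes, 3 rose and 3 fell in both lines, shares close to the 25.4% and 27% of all tested genes. Slc16a11 and Slc16a13 are members of the monocarboxylate transporter family and neighbours on chromosome 11, 371 bases apart on opposite strands (70103578 to 70107244 and 70107615 to 70111891, as the table gives them). Slc16a11 went from 124, 174 and 144 in WT to 505, 571 and 558 in KO-c19 and 585, 584 and 580 in KO-c43. Slc16a13 went from 1050, 1066 and 1077 to 2993, 3330 and 3547 and to 3470, 3401 and 3423. Both genes rose in both lines, by 3.72-fold and 3.98-fold for Slc16a11 (log2 1.89 and 1.99, adjusted p = 1.32e-11 and 6.77e-12) and by 3.08-fold and 3.22-fold for Slc16a13 (log2 1.62 and 1.69, adjusted p = 1.06e-14 and 6.02e-15).

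Slc16a6 moved the other way. Known in zebrafish as a liver exporter of ketone bodies, it was at 787, 832 and 815 in WT, 217, 213 and 259 in KO-c19 and 111, 114 and 90.5 in KO-c43. All groups were apart, and the fall was 3.54-fold in KO-c19 (log2 -1.82 ± 0.102, adjusted p = 2.6e-11) and 7.68-fold in KO-c43 (log2 -2.94, adjusted p = 3.74e-14). On the opposite strand it overlaps Amz2, which rose from a mean of 1283 to 1702 and 1495. Slc10a3 fell slightly in both lines (log2 -0.31 and -0.25, adjusted p = 8.94e-05 and 0.000562), and it shares its strand and part of its span with Ubl4a (log2 -0.22 and -0.12). The lactate carrier Slc16a1, named after its values were seen, had the highest WT level per kilobase of exon of all 146 genes. That level was 2422 ± 48.5 in WT, 2388 ± 64.6 in KO-c19 and 2343 ± 61.9 in KO-c43 (SD, n = 3 each), and the test was not passed (log2 -0.02 and -0.05, adjusted p = 0.62 and 0.25).

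**Figure D2:**
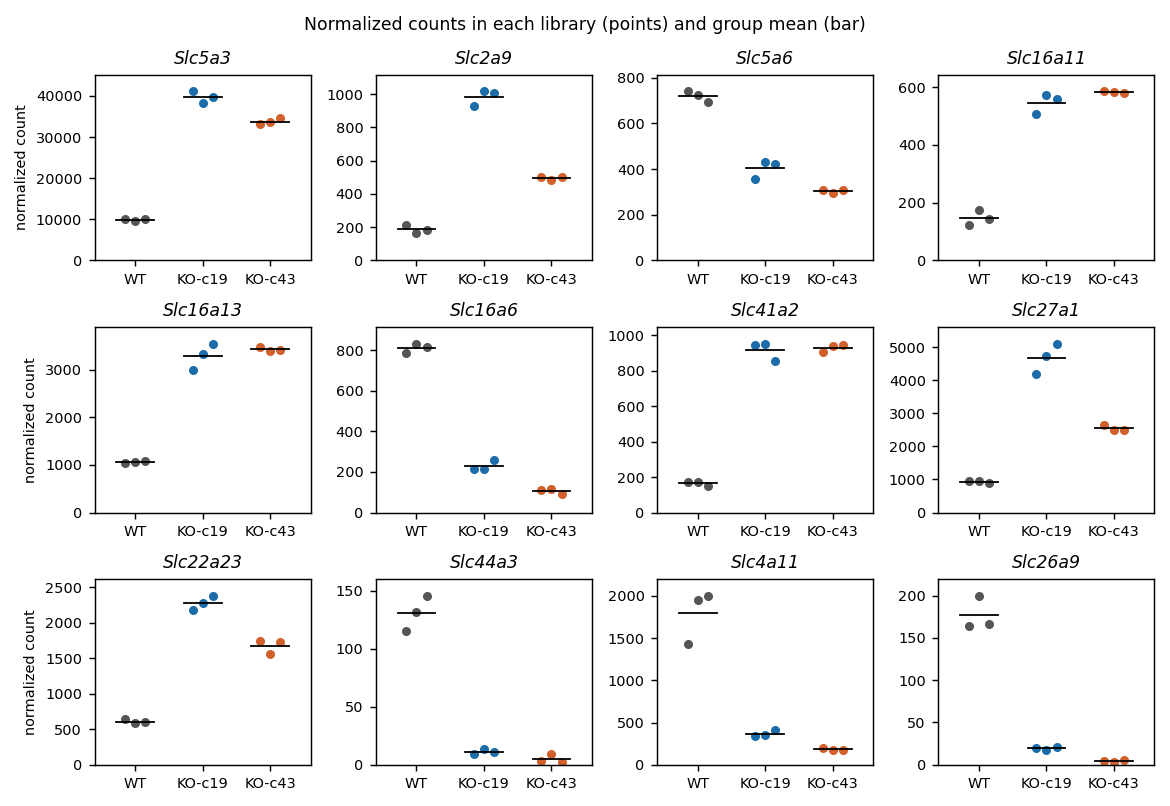
Normalized counts of 12 carrier genes in each library (points, 3 per group) with the group mean (bar), on axes that start at 0. Slc5a3, Slc2a9, Slc16a11, Slc16a13, Slc41a2, Slc27a1 and Slc22a23 lie above WT in both lines, and Slc5a6, Slc16a6, Slc44a3, Slc4a11 and Slc26a9 lie below it.

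Among carriers of vitamins, nucleosides, choline and cofactors, equal numbers went up and down. Of 15 genes, 6 rose and 6 fell in both lines, against 25.4% and 27% of all tested genes. A pair from the same family went opposite ways: Slc19a1, the reduced folate carrier, fell, and Slc19a2, a thiamine carrier, rose. Slc19a1 was at 2742, 3044 and 2894 in WT, 1656, 1685 and 1762 in KO-c19 and 1506, 1449 and 1392 in KO-c43 (log2 -0.77 and -0.997, adjusted p = 1.48e-10 and 4.02e-12). It overlaps the collagen gene Col18a1 on the opposite strand, which rose strongly (log2 2.05 and 2.02). Slc19a2 was at 1186, 1287 and 1171 in WT, 2207, 2212 and 2378 in KO-c19 and 1574, 1645 and 1715 in KO-c43 (log2 0.90 and 0.44, adjusted p = 3.35e-11 and 5.86e-07).

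Slc29a1, the equilibrative nucleoside carrier that takes up adenosine, rose from 4295, 4311 and 4167 to 6649, 7625 and 7444 in KO-c19 and 6645, 6384 and 6480 in KO-c43 (log2 0.76 and 0.61, adjusted p = 6.44e-11 and 1.47e-09). No knockout library of this gene overlapped WT. Slc44a3, a choline transporter-like protein, dropped to near the detection limit. It was at 115, 132 and 146 in WT, 9.04, 13.2 and 11.1 in KO-c19 and 2.9, 9.02 and 2.09 in KO-c43 (log2 -3.45 and -4.73). Without its WT libraries it would not have passed the value filter, so it had to differ and no test is given. At these levels the pseudocount of 1 shortens the fold.

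The zinc carriers showed no common direction against WT. Each line had as many up as down: 5 and 5 of 16 genes for KO-c19, and 7 and 7 for KO-c43, with 4 rising and 5 falling in both. Over all tested genes, 32.8% rose and 34.9% fell in KO-c19, shares close to those of the zinc genes, 32.5% and 33.1% in KO-c43, and 25.4% and 27% in both. Slc30a1, the exporter of the plasma membrane, was at 1074, 984 and 1044 in WT, 737, 725 and 741 in KO-c19 and 477, 554 and 555 in KO-c43. It was lower in each knockout library than in any WT one (log2 -0.49 ± 0.0643 and -0.97 ± 0.0643, adjusted p = 2.28e-06 and 3.04e-10). Slc30a4, the vesicular zinc exporter that loads zinc into mouse milk, was at 5859, 6023 and 5889 in WT, 12786, 11086 and 11591 in KO-c19 and 10760, 10601 and 11158 in KO-c43. It rose 1.99-fold and 1.83-fold (log2 0.99 and 0.87, adjusted p = 1.42e-12 and 9.1e-12). Slc30a5, which supplies zinc to enzymes of the secretory pathway, passed against WT in KO-c43 (log2 0.37, adjusted p = 1.33e-06), and in KO-c19 its log2 change was -0.07 (adjusted p = 0.212). Its values in KO-c43, 2873, 2916 and 3134, lay above all of WT and KO-c19.

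Importers of zinc also split. Slc39a4, the importer whose loss causes acrodermatitis enteropathica in humans, is on chromosome 15 (76496583 to 76501585, minus strand, as the table gives them). It was at 860, 859 and 825 in WT, 407, 438 and 480 in KO-c19 and 83.3, 80.3 and 80.6 in KO-c43. The fall was 1.92-fold in KO-c19 (log2 -0.94 ± 0.0791, adjusted p = 7.24e-09) and 10.3-fold in KO-c43 (log2 -3.36, adjusted p = 1.8e-16). Slc39a3 rose from 321, 307 and 299 in WT to 554, 602 and 676 in KO-c19 and 527, 503 and 511 in KO-c43 (log2 0.97 and 0.73, adjusted p = 2.13e-09 and 1.09e-07). Chosen after their values were seen, Slc39a10 fell (log2 -0.81 and -0.61, adjusted p = 1.4e-11 and 6.93e-10) and Slc39a14, which also moves iron and manganese, rose (log2 0.69 and 0.56, adjusted p = 1.29e-11 and 2.37e-10). Per kilobase of exon, Slc39a1 and Slc39a7 were the zinc genes with the highest WT levels, at 1975 ± 13.5 and 1790 ± 23.7.

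The metallothioneins whose promoters are shown above were also named after their values were seen. They rose in KO-c19, where Slc30a1 fell, and fell in KO-c43, as Slc30a1 did. Slc30a1, Mt1 and Mt2 were each lower in KO-c43 than in KO-c19 (log2 -0.48, -1.64 and -2.40). Mt1 was at 1812, 1949 and 1997 in WT, 3549, 4014 and 4157 in KO-c19 and 1320, 1285 and 1153 in KO-c43. It rose in KO-c19 (log2 1.02, adjusted p = 2.58e-10) and fell in KO-c43 (log2 -0.62, adjusted p = 1.78e-07). Mt2 did the same (log2 0.87 and -1.54, adjusted p = 5.55e-11 and 2.08e-14). The zinc sensor Mtf1 did not pass in either line (log2 -0.05 and -0.10).

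**Figure D3:**
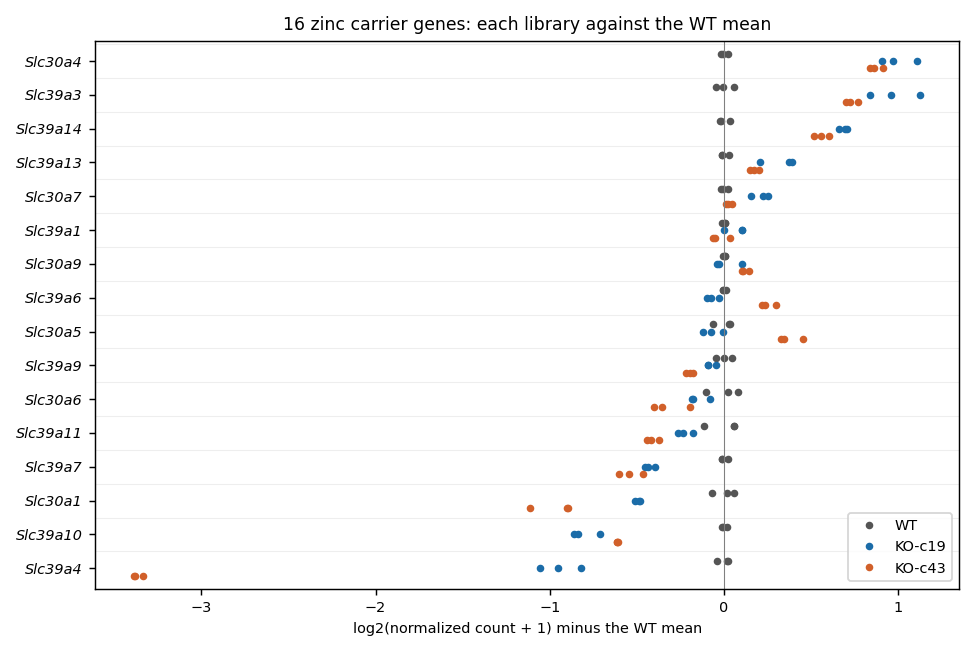
Each row is 1 of 16 zinc carrier genes, and each point is 1 library, placed by its log2(normalized count + 1) minus the WT mean of that gene, with WT, KO-c19 and KO-c43 on separate levels. Slc39a4 shows the widest gap between the lines, with log2 changes of -0.94 for KO-c19 and -3.36 for KO-c43. Slc30a4 and Slc39a3 lie to the right of WT in both.

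Carriers of iron, copper, manganese, magnesium and haem held 8 genes, of which 3 rose and 3 fell in both lines, against 25.4% and 27% of all tested genes. Slc41a2, a magnesium carrier, gave the highest mean rise over both lines of the carriers with a group mean of at least 100. It was at 172, 172 and 150 in WT, 947, 952 and 856 in KO-c19 and 903, 938 and 944 in KO-c43. The rise was nearly equal in the lines, 5.55-fold and 5.61-fold (log2 2.47 ± 0.0707 and 2.49 ± 0.0707, adjusted p = 2.79e-15 and 2.59e-15). Slc48a1, a haem carrier of endosomes and lysosomes, rose from 2415, 2428 and 2410 to 2987, 3415 and 3435 in KO-c19 and 4442, 4282 and 4140 in KO-c43 (log2 0.44 and 0.83, adjusted p = 3.76e-07 and 7.29e-11). It overlaps Hdac7 on the opposite strand (log2 0.04 and 0.19).

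The metal importers Slc11a2 and Slc31a1 fell. Slc11a2, which takes up ferrous iron and carries iron out of endosomes, was at 1723, 1795 and 1752 in WT, 1079, 1096 and 1064 in KO-c19 and 1036, 1032 and 1061 in KO-c43 (log2 -0.70 and -0.75, adjusted p = 1.44e-10 and 5.93e-11). Slc31a1, the copper importer, went from 2195, 2212 and 2226 to 1564, 1548 and 1502 and to 1390, 1358 and 1613 (log2 -0.52 and -0.61, adjusted p = 1.53e-07 and 2.19e-08). It overlaps Cdc26 on the opposite strand, which rose (log2 0.31 and 0.15). The iron exporter Slc40a1, named after its values were seen, was low in WT at 39.7, 40 and 17.5. Every KO-c19 library listed it at 0, and KO-c43 held at most 2.09. It passed the value filter through WT alone, so it had to differ and no test is given. Among iron genes outside the families, also picked after their values were seen, the transferrin receptor Tfrc fell (log2 -1.22 and -1.09, adjusted p = 2.93e-08 and 8.28e-08) and the ferritin heavy chain Fth1 rose (log2 0.90 and 1.34, adjusted p = 5.92e-08 and 1.31e-09). The ferritin light chain Ftl1 fell slightly in KO-c19 (log2 -0.17, adjusted p = 0.0015) and did not pass in KO-c43 (log2 -0.08, adjusted p = 0.099).

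The families that move sodium, protons, potassium, calcium, chloride and bicarbonate formed the biggest group, with 30 genes. KO-c19 had 16 of them higher and 10 lower, KO-c43 had 14 and 10, and 12 rose and 7 fell in both. The shares over all tested genes were 32.8% and 34.9% for KO-c19, 32.5% and 33.1% for KO-c43, and 25.4% and 27% for both. The potassium-chloride cotransporters Slc12a4 and Slc12a7, which let cells lose salt and water, rose in both lines and further in KO-c43. Slc12a4 was at 1772, 1819 and 1767 in WT, 2527, 2747 and 2683 in KO-c19 and 3353, 3561 and 3598 in KO-c43 (log2 0.57 and 0.97, adjusted p = 2.02e-09 and 1.3e-12). Slc12a7 was at 1491, 1594 and 1457 in WT, 2033, 2287 and 2280 in KO-c19 and 3427, 3275 and 3198 in KO-c43 (log2 0.54 and 1.12, adjusted p = 4.51e-08 and 1.89e-12). For both genes the 3 groups were apart, and the lines differed (log2 0.40 and 0.59, adjusted p = 6.72e-07 and 5.27e-08). The sodium-potassium-chloride cotransporter Slc12a2, which loads cells with salt and was named after its values were seen, rose as well (log2 0.70 and 0.48, adjusted p = 3.17e-10 and 4.96e-08). Slc8b1, the sodium-calcium exchanger of mitochondria, went from 337, 392 and 363 to 885, 903 and 952 in KO-c19 and 689, 732 and 747 in KO-c43 (log2 1.33 and 0.99, adjusted p = 5.07e-12 and 3.1e-10).

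Slc4a11 and Slc26a9 fell furthest of the ion carriers with a group mean of at least 100. Slc4a11, a proton-conducting membrane protein of corneal endothelium, was at 1425, 1952 and 2000 in WT, 338, 350 and 415 in KO-c19 and 196, 172 and 177 in KO-c43. WT replicate 1 was the lowest of the WT libraries, and was still over all 6 knockout libraries. The fall was 4.83-fold and 9.72-fold (log2 -2.27 ± 0.119 and -3.28 ± 0.119, adjusted p = 7.62e-10 and 1.5e-11). Slc26a9, a chloride channel of airway and stomach epithelium, was at 164, 200 and 167 in WT, 19.7, 17.2 and 21.2 in KO-c19 and 4.84, 3.61 and 5.24 in KO-c43 (log2 -3.13 ± 0.225 and -5.00 ± 0.225, adjusted p = 9.31e-10 and 1.41e-12). Its KO-c43 values are only a few reads per library.

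A pair of low genes of this group, both named after their values were seen, changed between presence and absence. Slc12a1, a cotransporter best known from the kidney, was at 0, 1.11 and 1.1 in WT, 46.8, 61.8 and 45.7 in KO-c19 and 12.6, 17.1 and 15.7 in KO-c43. Slc24a3, a potassium-dependent sodium-calcium exchanger, was at 72.2, 62.2 and 58.1 in WT and at 9.68, 15.3 and 10.5 in KO-c43, and each library of KO-c19 listed it at 0. Either gene would have passed the value filter through 1 group alone, so no test is given. Slc4a1ap, counted in this group by its symbol, encodes a nuclear adaptor protein and not a carrier (log2 -0.39 and -0.37).

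**Figure D4:**
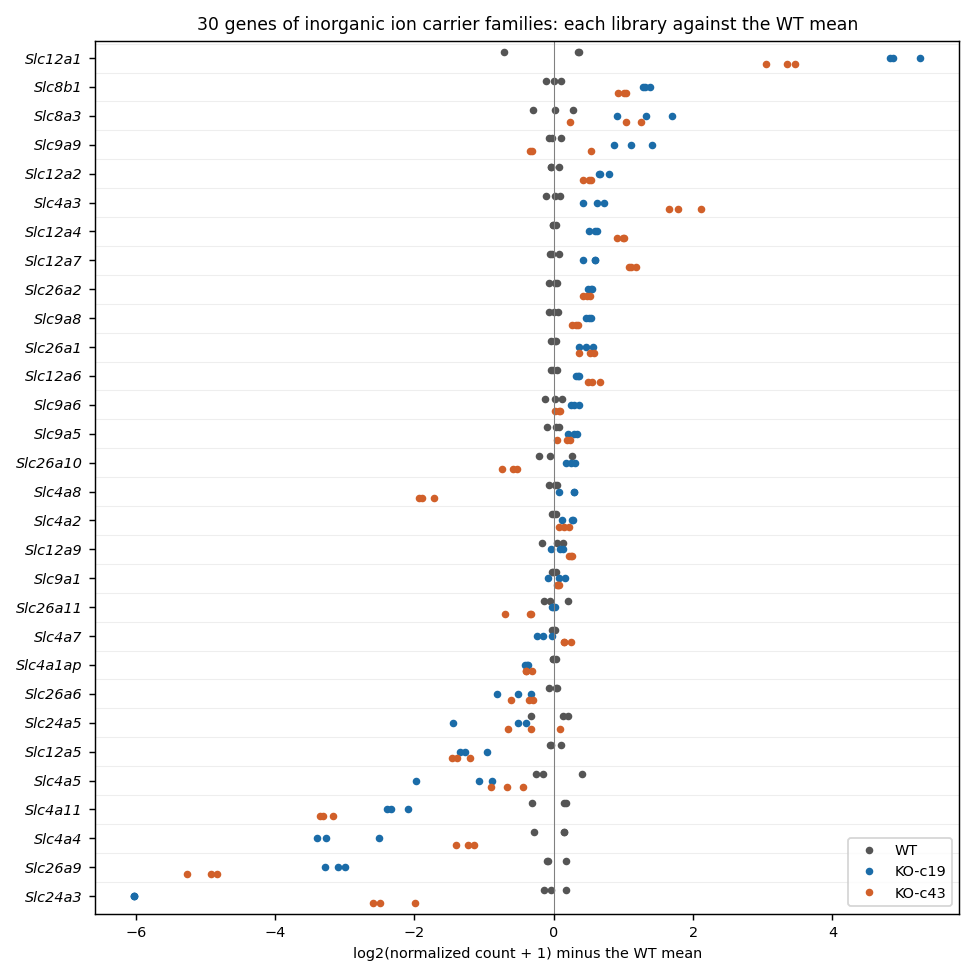
Each row is 1 of 30 genes of the inorganic ion families, and each point is 1 library, placed by its log2(normalized count + 1) minus the WT mean of that gene. Slc24a3, Slc26a9, Slc4a4 and Slc4a11 lie furthest below WT in KO-c19 and Slc12a1 furthest above, with Slc4a8 near WT in KO-c19 and well below it in KO-c43.

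Phosphate and related anion carriers held 8 genes. Of these, 5 rose and 1 fell in both lines, and 1 was called in opposite directions, against 25.4%, 27% and 2.96% of all tested genes. Slc17a5, the sialic acid exporter of lysosomes, went from 414, 436 and 426 to 656, 600 and 605 in KO-c19 and 676, 667 and 723 in KO-c43 (log2 0.54 and 0.69, adjusted p = 4.93e-07 and 2.06e-08). Slc37a1 and Slc37a3, from the sugar phosphate exchanger family, went opposite ways. Slc37a1 fell from 137, 173 and 150 to 94.5, 81.1 and 85.1 and to 52, 59.2 and 47.9 (log2 -0.81 and -1.51, adjusted p = 6.14e-05 and 3e-08). Slc37a3 rose from 1083, 1186 and 1095 to 1321, 1316 and 1353 and to 1536, 1700 and 1651 (log2 0.25 and 0.54, adjusted p = 0.000365 and 4.34e-08). The phosphate importer Slc20a1 is described with the differences between the lines.

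Organic ion, amine and urea carriers had the highest group median in KO-c19, a log2 change of 1.24, and their median for KO-c43 was 0.81. The group includes Slc14a1 and Slc14a2, which passed the value filter without WT and so had to rise. Its medians and counts were not taken without them. Of 12 genes, 6 rose and 1 fell in both lines, against 25.4% and 27% of all tested genes. Slc22a23, a member of the organic ion carrier family with no settled substrate, was at 639, 584 and 599 in WT, 2183, 2282 and 2382 in KO-c19 and 1746, 1557 and 1734 in KO-c43 (log2 1.91 and 1.46, adjusted p = 3.68e-15 and 1.38e-13). Slc22a15 of the same family was at 531, 529 and 489 in WT, 1643, 1549 and 1712 in KO-c19 and 1605, 1496 and 1565 in KO-c43 (log2 1.66 and 1.59, adjusted p = 1.68e-14 and 3.19e-14). Slc18a2, the vesicular monoamine carrier, fell in KO-c19 (log2 -0.44, adjusted p = 0.000203). In KO-c43 its log2 change of -0.21 was at the threshold (adjusted p = 0.0414). Its adjusted p was 0.054 under TMM scaling, 0.114 under total scaling and 0.0508 with a replicate block. Plain empirical Bayes gave 0.0539 and no filter 0.05001. The values were 0.108 and 0.122 without KO-c43 replicates 1 and 3, and 0.112 and 0.099 without WT replicates 1 and 3. The urea carriers Slc14a1 and Slc14a2, neighbours on chromosome 18 and named after their values were seen, were all but absent from WT. Slc14a1 was at 0, 1.11 and 0 in WT, 89.6, 74 and 76.8 in KO-c19 and 18.4, 28 and 24.1 in KO-c43. Slc14a2 was listed at 0 in all WT libraries and lay between 7.75 and 20.3 in the knockout libraries. Both passed the value filter without WT, so no test is given.

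Fatty acid carriers are acyl-CoA synthetases that trap fatty acids on entry, and 4 genes were tested. Slc27a1 was at 967, 945 and 885 in WT, 4190, 4743 and 5109 in KO-c19 and 2650, 2485 and 2510 in KO-c43. It rose 5-fold in KO-c19 (log2 2.32 ± 0.0604, adjusted p = 3.05e-15) and 2.73-fold in KO-c43 (log2 1.45, adjusted p = 1.39e-12), and the 3 groups were apart. Slc27a3 rose in KO-c43 alone of the comparisons with WT, from 37.9, 43.3 and 53.7 to 151, 147 and 139 (log2 1.69 ± 0.198, adjusted p = 6.22e-07), and KO-c19 lay at 34.5, 39.5 and 62.3 (adjusted p = 0.949). Slc27a6 was at 143, 163 and 175 in WT and 53.4, 60.8 and 55.7 in KO-c19 (log2 -1.48 ± 0.239, adjusted p = 2.62e-05). In KO-c43 it was listed at 0 in all 3 libraries (adjusted p = 1.59e-14), so the size of that change, and with it the p-value, depends on the pseudocount. Slc27a4, added after its values were seen, did not pass in KO-c19 (log2 -0.05) and rose slightly in KO-c43 (log2 0.25, adjusted p = 0.00052).

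Of the 4 lysosomal and peptide carriers, KO-c19 had 3 higher than WT, and KO-c43 had 2, against 32.8% and 32.5% of all tested genes. The lysosomal peptide and histidine carrier Slc15a4 rose by 0.18 on the log2 scale in both lines (adjusted p = 0.00796 and 0.00884). Its KO-c19 call was lost without KO-c19 replicate 3 (adjusted p = 0.0564) or WT replicate 3 (0.0508), and its KO-c43 call without WT replicate 3 (0.0557). Slc66a2 rose from 384, 426 and 369 to 660, 720 and 707 and to 579, 517 and 529 (log2 0.82 and 0.46, adjusted p = 1.13e-08 and 1.71e-05). Slc49a4, of a family outside these groups, rose from 505, 575 and 524 to 811, 923 and 956 and to 926, 903 and 907 (log2 0.74 and 0.77, adjusted p = 1.86e-08 and 1.21e-08).

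A pair of genes carries an Slc symbol without being carriers: Slc9a3r1 and Slc9a3r2 encode PDZ scaffolds that hold sodium-proton exchangers and other membrane proteins at the apical cell surface. Slc9a3r1 was at 3373, 3492 and 3477 in WT, 1877, 2150 and 2115 in KO-c19 and 1338, 1384 and 1314 in KO-c43 (log2 -0.75 and -1.36, adjusted p = 2.75e-10 and 8.62e-14). Slc9a3r2 was at 534, 564 and 523 in WT, 875, 887 and 852 in KO-c19 and 734, 706 and 700 in KO-c43 (log2 0.69 and 0.40, adjusted p = 4.19e-09 and 4.97e-06). The scaffolds thus changed in opposite directions in both lines.

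Genes that work with these carriers were looked at as a list of 49, of which 39 were tested. KO-c19 had 13 higher and 16 lower (32.8% and 34.9% of all tested genes), and KO-c43 had 11 and 17 (32.5% and 33.1% of all). In both lines, 10 rose and 13 fell (25.4% and 27% of all), and the list's median log2 change was -0.05 and -0.10. The organic anion carriers Slco4a1 and Slco2a1, the latter a prostaglandin importer, had the greatest mean rises. Slco4a1 was at 462, 522 and 489 in WT, 4141, 4706 and 4907 in KO-c19 and 2808, 2703 and 2625 in KO-c43 (log2 3.22 and 2.47, adjusted p = 2.11e-17 and 5.72e-16). Slco2a1 rose by 1.51 and 1.66 on the log2 scale (adjusted p = 7.72e-16 and 1.97e-16). The carbonic anhydrases Car9 and Car2, which supply bicarbonate and protons, had the greatest mean falls. Car9 was at 329, 310 and 323 in WT and at most 5.99 in any knockout library. Car2 was at 70.4, 47.7 and 51.5 in WT and listed at 0 in all 6 knockout libraries. Both passed the value filter through WT alone, so they had to differ and no test is given. The other carbonic anhydrases of the list, named after their values were seen, went opposite ways. Car12 fell (log2 -2.40 and -2.22, adjusted p = 9.76e-17 and 2.81e-16) and Car13 rose (log2 0.33 and 0.22, adjusted p = 2.83e-06 and 0.000215).

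The knockout lines themselves differed in many carriers, and KO-c43 was more often the lower one. Set against KO-c19, KO-c43 had 24 carriers higher and 52 lower, or 16.4% and 35.6% of the 146, where 21.1% of all tested genes were higher and 18.3% lower. Dividing each library by its total instead turned the balance of all genes, to 2956 higher and 4309 lower from 3717 and 3211, and gave 19 carriers higher and 59 lower. Quantile scaling turned it slightly, to 3479 and 3605, with 22 carriers higher and 54 lower. The median difference was -0.08 for carriers and 0.00 for all genes. Zinc carriers had 4 higher and 10 lower of 16. Beyond 2-fold, 6 carriers were higher (4.11%, against 2.55% of all genes) and 13 lower (8.9%, against 3.45%).

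Slc20a1, the sodium-phosphate importer PiT1, was called higher in one line and lower in the other. It is on chromosome 2 (129040684 to 129053537, plus strand, as the table gives them). It was at 5999, 5972 and 5738 in WT, 13024, 12935 and 12496 in KO-c19 and 4168, 4092 and 4259 in KO-c43. KO-c19 lay 2.17-fold above WT (log2 1.12 ± 0.0358, adjusted p = 1.29e-14) and KO-c43 1.41-fold below it (log2 -0.50, adjusted p = 8.73e-10). Between the lines the difference was 3.07-fold (log2 -1.62 ± 0.0358, adjusted p = 4.58e-16). The long noncoding RNA gene 9830144P21Rik, which overlaps it on the opposite strand, had means of 72.4, 215 and 67.8 in WT, KO-c19 and KO-c43.

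Slc4a8, a sodium-driven chloride-bicarbonate exchanger, was at 428, 420 and 396 in WT, 435, 507 and 509 in KO-c19 and 110, 107 and 125 in KO-c43. It fell 3.61-fold in KO-c43 (log2 -1.85 ± 0.0893, adjusted p = 3.68e-12) and lay 4.21-fold lower there than in KO-c19 (adjusted p = 3.56e-12). Its rise in KO-c19 was slight (log2 0.22, adjusted p = 0.0378) and was lost without KO-c19 replicate 2 (adjusted p = 0.128) or 3 (0.135), or without WT replicate 2 (0.0665) or 3 (0.124). Slc4a7, a sodium-bicarbonate cotransporter and the last gene with opposite calls, changed little (log2 -0.14 and 0.18, adjusted p = 0.0194 and 0.0034). The fall of Slc4a7 in KO-c19 did not pass under total scaling (adjusted p = 0.51), quantile scaling (0.367) or plain empirical Bayes (0.0809), nor without KO-c19 replicate 2 (0.127) or 3 (0.0536) or WT replicate 1 (0.0607). These 3 of 146 carriers are 2.05%, against 2.96% of all tested genes, and only 1 was called so without KO-c19 replicate 2 or without KO-c19 replicate 3.

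Slc22a29 was highest in KO-c19, at 108, 106 and 108 against 43.3, 34.4 and 25.2 in WT and 51.3, 42.4 and 42.9 in KO-c43. It rose in KO-c19 (log2 1.65 ± 0.189, adjusted p = 4.15e-07) and did not pass in KO-c43 (log2 0.43, adjusted p = 0.0559), and the lines differed by -1.23 (adjusted p = 4.09e-05). The KO-c43 change passed without WT replicate 1 (log2 0.61, adjusted p = 0.0105), under total scaling (0.0341) and with a replicate block (0.0497).

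**Figure D5:**
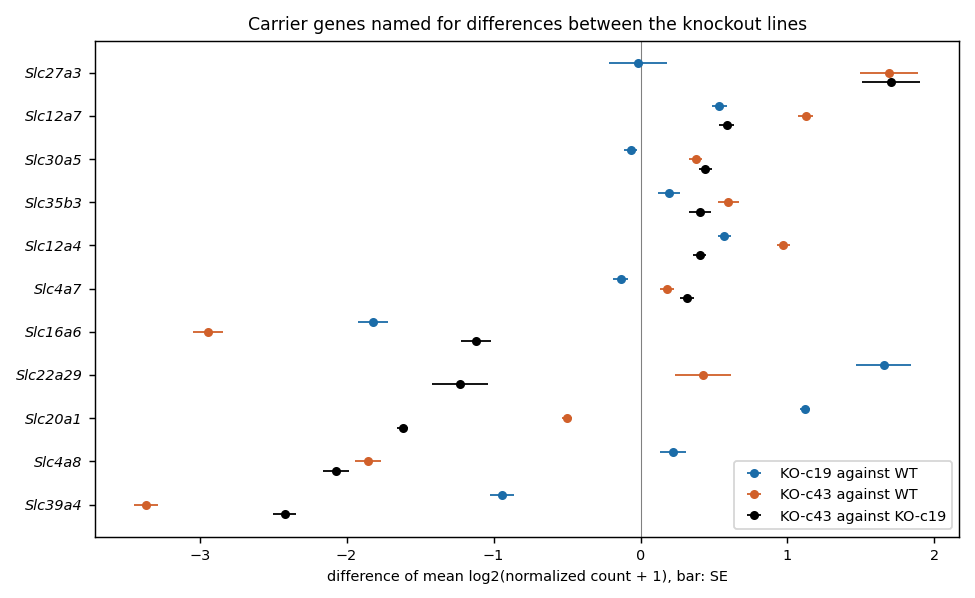
Differences of mean log2(normalized count + 1) with SE bars for 11 carrier genes named for differences between the lines, with each line compared with WT and the lines compared with each other. Slc20a1, Slc4a8 and Slc4a7 lie on opposite sides of 0 in the knockout lines. Slc27a3 has the largest positive difference between lines, at 1.71, and Slc39a4 the largest negative one, at -2.42.

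The value filter decides which low genes are counted as members, and genes near it carry few reads. Just inside it was Slc2a5, a fructose carrier, at 0.902, 1.11 and 0 in WT, 0 in all of KO-c19 and 15.5, 11.7 and 10.5 in KO-c43. Slc2a6, also just inside, ranged from 4.51 to 14.4. Just outside were Slc39a2, at 2.71 to 10.02, and Slc17a9, at 1.01 to 16.4. A low gene that passed through 1 group alone, as Slc2a5 did, had to differ between groups. Of the 146 carriers, 115 had a mean of at least 100 in at least 1 group, and 56 overlapped the span of another gene in the table, 12 of them on the same strand.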

How the data were processed

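The 9 libraries were made from total RNA with a stranded kit that removes ribosomal RNA, per the labels' protocols. Per the submitters' processing notes, the authors used cutadapt, STAR and Partek with mm10. For the versions, the read counter and its use of strand, nothing is given in the sources used here. In unit, the deposited signal is a normalized count per gene, in which the authors divided gene counts by 1 factor per library. Between 83.6% and 84.8% of low values (under 20) lay within 0.1 of whole reads, by the estimate of what 1 read was worth, so no count model was run. Coordinates are as in the table, which names no build.

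Values were transformed as log2(value + 1). A gene was tested if 3 or more libraries had a value of at least 10, with limma 3.58.1 (R 4.3.3, statmod 1.5.0): 3 group means, intensity trend, robust empirical Bayes, two-sided, Benjamini-Hochberg over 17579 genes per comparison, threshold 0.05. The code was tested on simulated data. Folds are on the log2(value + 1) scale and understate changes of low genes. Lengths per kilobase are merged exons of GENCODE M21, matched by ID. Named genes were the 2 rising and 2 falling most in both lines in each role group, the 5 most changed each way in each comparison (higher group mean at least 100, libraries apart), and up to 6 with opposite calls, of which there were 3. In the list of partners, 2 each way were named. Others are said to be picked after their values were seen. The members and lists were chosen with earlier results of these data known. Alternatives were other pseudocounts, filters, scalings and variance models, a replicate block and leaving out each library. No label says that replicate numbers pair the cultures.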

Additional observations from a re-analysis of the deposited data

Results flagged for a closer look

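Both knockout lines are labelled by the same gene, Nat10, and each carrier named by the naming rule whose change against WT differed between KO-c43 and KO-c19 by the limma test of that difference (adjusted p under 0.05) is listed with its log2 difference, KO-c43 minus KO-c19. Values below -1 were found for Slc27a6 (-5.85), Slc39a4 (-2.42), Slc4a8 (-2.07), Slc26a9 (-1.88), Slc20a1 (-1.62), Slc44a3 (-1.28), Slc22a29 (-1.23), Slc16a6 (-1.12) and Slc4a11 (-1.01). The value of Slc27a6 depends on the pseudocount, since every KO-c43 library lists it at 0. Between -1 and -0.4 lay Slc2a9 (-0.99), Slc27a1 (-0.87), Slc37a1 (-0.70), Slc9a3r1 (-0.60), Slc35c1 (-0.48), Slc30a1 (-0.48), Slc19a2 (-0.46) and Slc22a23 (-0.44). Smaller negative differences were those of Slc5a6 (-0.40), Slc66a2 (-0.36), Slc8b1 (-0.34), Slc9a3r2 (-0.29), Slc39a3 (-0.24), Slc5a3 (-0.23), Slc19a1 (-0.23), Slc29a1 (-0.15), Slc35a5 (-0.15) and Slc30a4 (-0.12). KO-c43 was the higher line for Slc18a2 (0.23), Slc37a3 (0.29), Slc4a7 (0.31), Slc48a1 (0.39), Slc12a4 (0.40), Slc35b3 (0.41), Slc30a5 (0.44), Slc12a7 (0.59) and Slc27a3 (1.71). The differences of Slc18a2, Slc29a1, Slc30a4, Slc35a5 and Slc39a3 lost their call when some single libraries were left out, with adjusted p from 0.052 to 0.211. Other settings also ended calls: a replicate block for Slc18a2 (0.0516) and Slc35a5 (0.052), total scaling for Slc18a2 (0.117), no filter for Slc35a5 (0.0505), plain empirical Bayes for Slc18a2 (0.0618), Slc29a1 (0.0704) and Slc30a4 (0.132), and fitting only the groups compared for Slc18a2 (0.0623), Slc30a4 (0.0693) and Slc35a5 (0.0547). Of the carriers added after their values were seen, the lines also differed in Slc12a2 (-0.21), Slc27a4 (0.30), Slc39a10 (0.20) and Slc39a14 (-0.13). For Slc44a3, Slc24a3, Slc14a1, Slc12a1 and Slc2a5 no test is given, because of how they passed the value filter. Slc44a3, though named by the rule, is therefore left out of the list above. Slc24a3 and Slc2a5 are also listed at 0 in KO-c19.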

How the results depend on the processing

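Under other pseudocounts (0.5 and 5), filters (none, or at least 50), scalings (TMM, total, quantile), plain empirical Bayes, fits of only the groups compared and a replicate block, the carriers called higher and lower ranged from 59 to 76 and 33 to 41 for KO-c19, 61 to 72 and 41 to 45 for KO-c43, and from 19 to 25 and 49 to 59 in KO-c43 against KO-c19. Called in both lines were 49 to 62 higher and 30 to 34 lower, and 2 to 4 had opposite calls. The carriers tested were 170 with no filter, 124 with at least 50 and 146 in the other settings. The highest KO-c19 count of 76 and the lowest between-line count of 19 came from total scaling, which moved the median of all genes to 0.10 for KO-c19, 0.05 for KO-c43 and -0.06 between the lines. All tested genes then had 6840 higher and 5010 lower for KO-c19, and 6210 and 5277 for KO-c43. The main fit gave 5761 and 6131, and 5712 and 5817. For KO-c43, TMM (5819 and 5718) and quantile scaling (5734 and 5636) also gave more genes higher than lower. With the replicate number as a block, 67 rose and 38 fell in KO-c19, 69 and 42 did in KO-c43, and 23 and 50 between the lines. No label says that the numbers pair the cultures. Deviations of same-numbered libraries correlated between -0.0914 and 0.0754, and 1 of 9 correlated best with its own number. Leaving out each library in turn gave 62 to 71 higher and 35 to 38 lower for KO-c19, 64 to 70 and 42 to 45 for KO-c43, and 19 to 25 and 41 to 53 between the lines, with 50 to 56 higher and 32 to 34 lower in both. Opposite calls ranged from 1 to 3, with 1 left without KO-c19 replicate 2 or 3. Of the alternative values for single named genes, 2614 kept their side of the threshold, 59 lost a call, 6 gained one and 0 reversed. Depth limits genes at a few reads per library, such as Slc26a9 and Slc44a3 in KO-c43.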
